A study of Mus musculus with 6 samples.

Results

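Molecular chaperones fold newly made proteins, refold damaged ones and carry proteins between compartments. The chaperone genes described here were the rows of the deposited count table whose symbol starts with Hsp (without Hspg2), with Dnaja, Dnajb or Dnajc, or with Cct2 to Cct8, together with Tcp1. They numbered 66 of 11922 genes: 20 HSP, 38 DNAJ and 8 CCT genes. RNA came from splenic CD8+ T cells of C57BL6/J mice, selected on magnetic columns and activated for 72 hours with anti-CD3/anti-CD28 Dynabeads. The cells were then expanded for 4 days, with 100 units/ml recombinant human IL-2 in both phases. Both groups shared all of this, and differed only in the additive present over the 7 days: water (vehicle, n = 3) or 0.25 mM aminoxyacetic acid (AOA, n = 3), an inhibitor of enzymes that depend on vitamin B6. Each of the 3 mice supplied 1 vehicle and 1 AOA library. The question was how the chaperone transcripts of these cells stood after 7 days with AOA.

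The families work as machines with helpers. HSP70 proteins bind exposed hydrophobic stretches of their clients in a cycle of ATP binding and hydrolysis. J proteins, encoded by the DNAJ genes, deliver clients to HSP70 and start the hydrolysis, and nucleotide exchange factors, the HSP110 proteins among them, reset the cycle. HSP90 acts later, on kinases, receptors and other nearly folded clients, with its own co-chaperones. HSP60 with its lid HSP10 folds proteins inside mitochondria, and the CCT complex, a double ring of distinct subunits in the cytosol, folds actin, tubulin and many WD40 proteins. In lymphocytes, activation and rapid growth place a high load on protein synthesis and folding.

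More chaperone genes rose than fell with AOA. Of the 65 members tested, 30 were higher with AOA, 9 were lower and 26 did not pass an adjusted p of 0.05 in the edgeR quasi-likelihood test, adjusted over all 11759 genes tested. Over all genes tested, 26.2% were higher and 26.8% lower, 53.0% in either direction. The 3 AOA libraries lay above all 3 vehicle libraries for 33 members and below them for 13, against 31.0% and 31.1% of all genes. The median log2 fold change of AOA over vehicle was 0.45 for the members and -0.02 for all genes, and 11 members at least doubled, against 12.1% of all genes. The families differed in their counts. Of the HSP genes 10 of 19 were higher and 0 were lower with edgeR, with a median of 0.78. At an unadjusted p under 0.05 edgeR and, at an adjusted p of 0.05, limma-voom also put 0 HSP genes lower, and DESeq2 put 1, Hspa12a. All 8 CCT genes were higher, with a median of 0.94. The DNAJ genes were split, 12 higher and 9 lower of 38, with a median of 0.10. The difference between the families was not tested.

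**Figure D1:**
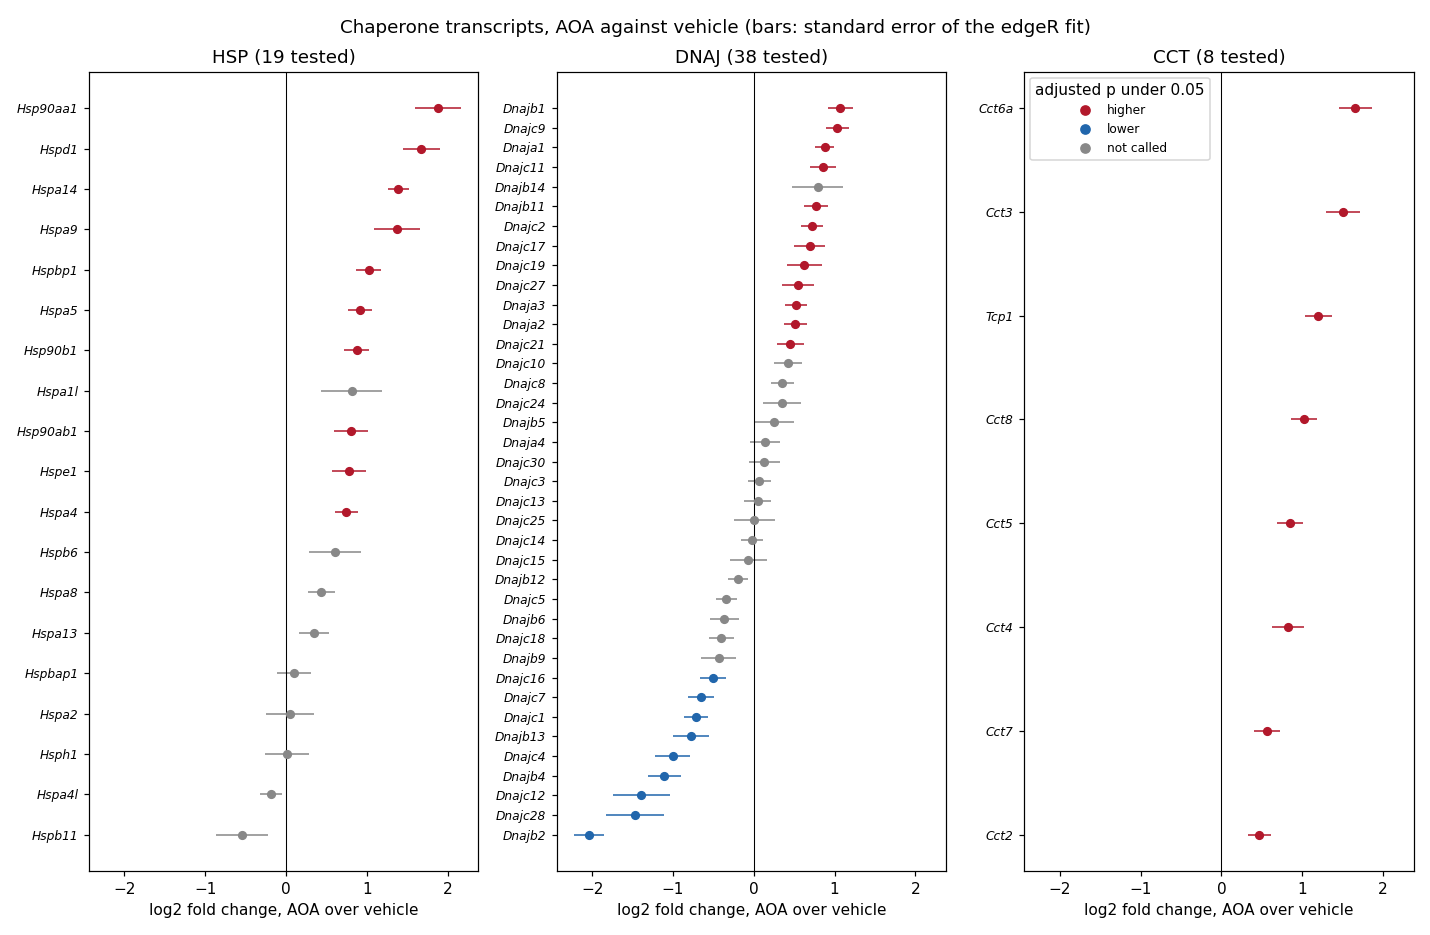
Log2 fold change of AOA over vehicle (x axis) for each tested chaperone gene (y axis), in 3 panels for the HSP, DNAJ and CCT genes. Points are edgeR estimates from 3 libraries a group, bars are 1 standard error, and colour marks an adjusted p under 0.05. All 8 CCT points lie above 0, from 0.47 to 1.66, while the 38 DNAJ points run from -2.03 to 1.07.

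Summed over a family, the normalised levels (CPM, counts scaled to the same library size) showed the same order. The HSP genes together held 5295, 6612 and 5609 CPM in the vehicle libraries of mice 1, 2 and 3 and 9662, 10012 and 9851 CPM in the AOA libraries. The CCT genes together held 2101, 2475 and 2249 CPM with vehicle and 4906, 4052 and 3906 CPM with AOA. For the DNAJ genes the sums were 2531, 2499 and 2507 CPM with vehicle and 2896, 2835 and 2854 CPM with AOA. None of the 3 sums overlapped between the groups, and the DNAJ sum moved least.

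Total counts ran from 12881962 to 18934869 with vehicle and from 18696114 to 21997078 with AOA. Cd8a and Cd8b1 were abundant in all 6 libraries and higher with AOA (log2 fold changes 1.03 and 0.64), the call of Cd8b1 being lost without AOA library 3 (adjusted p = 0.0634), while Cd3d and Cd3e did not pass (-0.13 and -0.27). Markers of other cells also moved: summed CPM of the 3 myeloid markers in the table was 55.2 to 66.5 with vehicle and 4.18 to 7.77 with AOA, nearly all of it Itgam and Cd68, with Lyz2 at or near 0. The 3 CD4 T cell markers summed to 82.2 to 137 and 21.7 to 31.3 CPM, the 4 B cell markers, mostly Cd79b, to 12.6 to 16.6 and 22.6 to 30.7 CPM, and the 2 NK cell markers to 20.1 to 114 and 3.53 to 11.6 CPM, with Ncr1 near 0. Of the CD4 T cell markers, Cd4 and Cd40lg were lower, and Foxp3 did not pass (0.36, adjusted p = 0.127), with means of 13.3 CPM with vehicle and 17.1 CPM with AOA. The part of these markers in the chaperone results was not tested, and in bulk RNA fewer cells of a type and less RNA per cell cannot be told apart. Within the vehicle group, the library of mouse 2 was the highest for 40 of the 65 members (61.5%), against 42.2% of all genes. Within the AOA group, the library of mouse 1 was the highest for 33 members (50.8%), against 43.2%.

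All 3 HSP90 genes among the members were higher with AOA, against 26.2% of all genes. Hsp90aa1 (Entrez 15519, chr12:110691036-110696395 in GRCm38.p6), the stress-inducible cytosolic form, had the largest log2 fold change of all 65 members. Its levels were 91.1, 205 and 108 CPM with vehicle and 445, 534 and 502 CPM with AOA, log2 fold change 1.88 ± 0.28 (SE), adjusted p = 0.000634. Every AOA library held a higher level than the highest vehicle library, that of mouse 2, and without that library the log2 fold change was 2.35. In GENCODE transcripts, 53.1% of the 75-base windows of Hsp90aa1 also occur in other genes, and only uniquely mapped reads were counted, so its level relative to other genes is uncertain. Hsp90ab1 (chr17:45567778-45573261), the constitutive cytosolic form, was far more abundant, at 1560.2, 2481 and 1828 CPM with vehicle and 3069, 3698 and 3507 CPM with AOA (log2 fold change 0.81 ± 0.21 (SE), adjusted p = 0.0101). Per kilobase of gene length, Hsp90aa1 stood at 5.14%, 7.26% and 5.19% of Hsp90ab1 with vehicle and at 12.8%, 12.7% and 12.6% with AOA. Hsp90b1, which encodes GRP94 of the endoplasmic reticulum (ER), was measured at 379.6, 450.1 and 400.1 CPM with vehicle and 659.5, 779 and 811 CPM with AOA (log2 fold change 0.87 ± 0.16 (SE), adjusted p = 0.0015). The AOA libraries lay above the vehicle libraries for all 3 genes, as for 31.0% of all genes.

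Among the HSP70 and HSP110 genes, 4 of the 10 tested were higher and 0 were lower with edgeR, against 26.2% and 26.8% of all genes. DESeq2 put 1 lower, Hspa12a, and edgeR at an unadjusted p under 0.05 and limma-voom put 0 lower. Hspa14, whose product works at the ribosome on nascent chains, was at 49.6, 55.2 and 51.4 CPM with vehicle and 149, 129.6 and 130.2 CPM with AOA (log2 fold change 1.39 ± 0.13 (SE), adjusted p = 4.81e-05). The spread within each group was small beside this difference. Hspa9 encodes mortalin, the HSP70 of the mitochondrial matrix, and its levels were 134, 268 and 127 CPM with vehicle and 382, 515 and 474 CPM with AOA (log2 fold change 1.38 ± 0.28 (SE), adjusted p = 0.0032). Its vehicle library of mouse 2 lay between the other vehicle libraries and the AOA libraries, and without it the log2 fold change was 1.85.

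Hspa5 encodes BiP, the HSP70 of the ER, and was at 261, 326 and 266 CPM with vehicle and 567, 545 and 496 CPM with AOA (log2 fold change 0.91 ± 0.15 (SE), adjusted p = 0.00103). Hspa4, an HSP110-type exchange factor, was at 209.5, 228 and 217 CPM with vehicle and 323, 409 and 363 CPM with AOA (log2 fold change 0.74 ± 0.14 (SE), adjusted p = 0.00216). Hspa8, the constitutive cytosolic HSC70, was the most abundant chaperone per length with vehicle, at 1009.7 ± 54.9 CPM per kilobase (SD, n = 3), and Hsp90ab1 followed at 780.4 ± 189. With AOA they stood at 1366 ± 172 and 1366 ± 129, a difference smaller than the spread. The 3 AOA values of Hspa8 lay above its vehicle values (2191, 1991 and 2191 CPM with vehicle and 3275, 2571 and 2776 CPM with AOA), but it did not pass the test (log2 fold change 0.44 ± 0.17 (SE), adjusted p = 0.0561). It passed in 7 of the alternatives, DESeq2 among them (adjusted p = 0.00542), and 68.0% of its 75-base windows occur in other genes as well.

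Not every stress-linked gene followed. Hsph1, which encodes the inducible HSP110, was at 138, 231 and 104 CPM with vehicle and 127, 188 and 162 CPM with AOA (log2 fold change 0.01 ± 0.27 (SE), adjusted p = 0.969). The groups overlapped, and the highest value of all was the vehicle library of mouse 2. The other HSP70-type genes that did not pass were Hspa13 (0.34, adjusted p = 0.144), Hspa1l (0.81, adjusted p = 0.103), Hspa2 (0.05, adjusted p = 0.905) and Hspa4l (-0.18, adjusted p = 0.276). Hspa12a, with 5, 8 and 21 counts with vehicle and 4, 1 and 3 with AOA, failed the filter on low counts and was the only member not tested. Of the small HSP genes, Hspb6 (0.61, adjusted p = 0.138) and Hspb11 (-0.55, adjusted p = 0.182), an intraflagellar transport gene by function, did not pass, and both were low, under 20 CPM in every library. Hspbp1, an exchange factor of HSP70, was at 24.0, 31.2 and 29.3 CPM with vehicle and 62.0, 50.9 and 58.6 CPM with AOA (log2 fold change 1.02 ± 0.15 (SE), adjusted p = 0.00058), and Hspbap1 did not pass (0.10, adjusted p = 0.71).

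**Figure D2:**
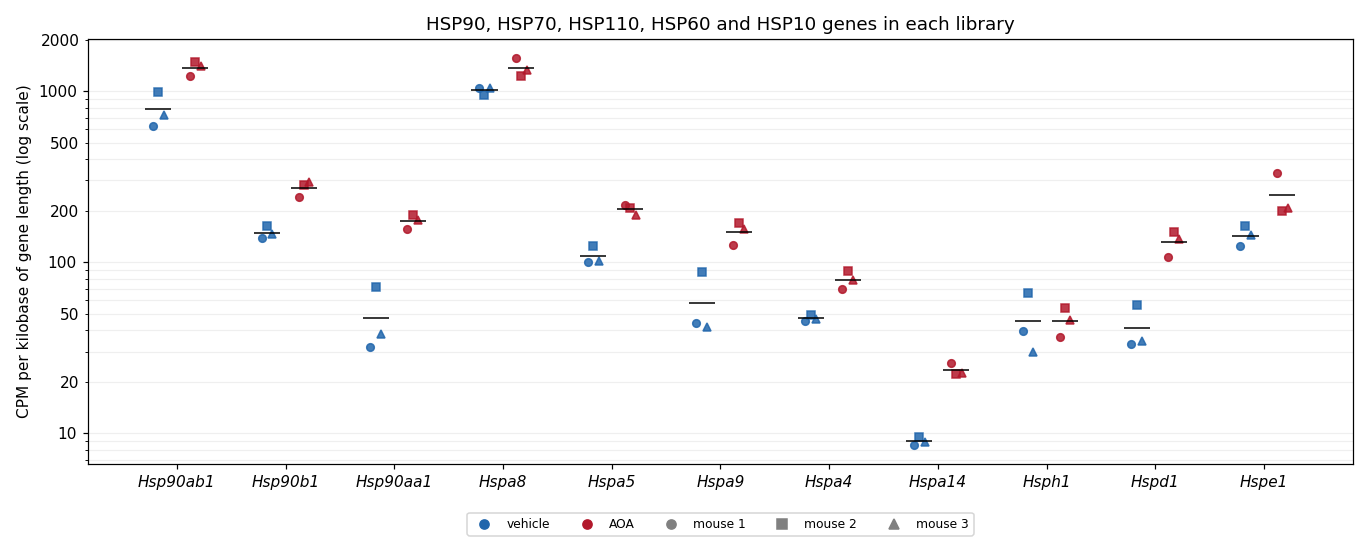
Level in CPM per kilobase of gene length (y axis, log scale) of 11 HSP genes (x axis) in each library. Blue is vehicle, red is AOA, the marker shape gives the mouse, and black lines are group means of 3 libraries. The genes shown were picked by hand. The AOA libraries lie above the vehicle libraries for 10 of them, and for Hsph1 the groups overlap. Over all 19 tested HSP genes the AOA libraries lie above for 12, against 31.0% of all genes.

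Hspd1 and Hspe1 encode HSP60 and its lid HSP10, which work as one machine in mitochondria, and lie head to head on chromosome 1. In RefSeq (GRCm38.p6) 215 bases separate one start of Hspd1, on the minus strand, from the start of Hspe1, on the plus strand, and another Hspd1 start lies 95 bases inside Hspe1. The stretch between them, shown because both genes start from it, spans chr1:55087933-55088147 and is printed on the plus strand with a heat shock element in capitals, units of GAA and TTC in turn with 2 bases between them.
Hspd1 to Hspe1: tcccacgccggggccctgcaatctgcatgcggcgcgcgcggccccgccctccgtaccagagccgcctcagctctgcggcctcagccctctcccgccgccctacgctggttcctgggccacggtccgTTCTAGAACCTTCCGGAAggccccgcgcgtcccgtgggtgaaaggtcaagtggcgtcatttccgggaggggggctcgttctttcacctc

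Hspd1 was at 77.7, 131 and 80.2 CPM with vehicle and 250.5, 351 and 320.1 CPM with AOA (log2 fold change 1.67 ± 0.23 (SE), adjusted p = 0.000386). Hspe1 was at 95.1, 124 and 109.9 CPM with vehicle and 255, 153 and 159 CPM with AOA (log2 fold change 0.78 ± 0.21 (SE), adjusted p = 0.012). All AOA libraries lay above all vehicle libraries for both genes, as for 31.0% of all genes. Yet the AOA library of mouse 1 was the lowest of its group for Hspd1 and the highest for Hspe1. Without that library the log2 fold changes were 1.80 and 0.51. The deposited lengths are 2332 bases for Hspd1 and 768 for Hspe1, and with a trend in gene length removed from each library the values were 1.70 and 0.66. Per kilobase, Hspd1 stood at 26.9%, 34.8% and 24.0% of Hspe1 with vehicle and at 32.4%, 75.8% and 66.1% with AOA, so that the AOA library of mouse 1 lay within the vehicle range. Of the 75-base windows, 33.7% of Hspd1 and 23.7% of Hspe1 occur in other genes.

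The genes of the CCT complex rose together. Each ring holds 8 subunits, Tcp1 (CCT1) and Cct2 to Cct8, of which Cct6a is the form found outside the testis. All 8 genes were higher with AOA (26.2% of all genes were). The AOA libraries lay above the vehicle libraries for all 8 (31.0% of all genes), and 4 of them at least doubled (12.1% of all genes).

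Cct6a had the largest log2 fold change of the complex. It was at 102, 149 and 106 CPM with vehicle and 471, 341 and 318 CPM with AOA (log2 fold change 1.66 ± 0.21 (SE), adjusted p = 0.000251). Cct3 followed at 126, 203 and 135 CPM with vehicle and 508, 418 and 392 CPM with AOA (log2 fold change 1.51 ± 0.21 (SE), adjusted p = 0.000409). Tcp1 was at 247, 315 and 256 CPM with vehicle and 721, 601 and 557 CPM with AOA (log2 fold change 1.20 ± 0.17 (SE), adjusted p = 0.000434). In all 3, every AOA library exceeded every vehicle library.

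Cct8 was at 197, 267 and 216 CPM with vehicle and 476, 466 and 439 CPM with AOA (log2 fold change 1.02 ± 0.16 (SE), adjusted p = 0.000669). For Cct5 the levels were 369.8, 395 and 421 CPM with vehicle and 824, 668 and 644 CPM with AOA (log2 fold change 0.85 ± 0.16 (SE), adjusted p = 0.00185). Cct4 stood at 257, 340.1 and 274 CPM with vehicle and 656, 439 and 448 CPM with AOA (log2 fold change 0.82 ± 0.20 (SE), adjusted p = 0.00703), with the AOA library of mouse 1 well above the other AOA libraries. Cct7 was at 328, 266 and 325 CPM with vehicle and 509.8, 431 and 417 CPM with AOA (log2 fold change 0.56 ± 0.16 (SE), adjusted p = 0.0132). Cct2, with 474, 540.2 and 515 CPM with vehicle and 740.1, 687 and 690.2 CPM with AOA (log2 fold change 0.47 ± 0.14 (SE), adjusted p = 0.0198), moved least. Its call was lost when any one of 4 libraries was left out, vehicle 1 or 3 or AOA 2 or 3 (adjusted p from 0.051 to 0.0782), and the other 7 kept theirs without any single library.

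Per kilobase, the order of the subunits with vehicle was Cct2 (259.8 ± 17.1 CPM per kilobase, SD), Cct5 (185 ± 12.0), Cct4 (148 ± 22.2), Cct7 (125 ± 14.4), Tcp1 (109 ± 14.8), Cct8 (94.9 ± 15.2), Cct3 (79.0 ± 21.6) and Cct6a (54.9 ± 12.0). From Cct4 to Cct6a, neighbours in this order differed by less than the sum of their SDs. The highest subunit exceeded the lowest 5.12, 4.01 and 5.36-fold in the vehicle libraries and 1.94, 2.23 and 2.40-fold in the AOA libraries. The coefficient of variation over the 8 subunits was 52.2%, 45.2% and 54.1% with vehicle and 26.6%, 28.6% and 30.6% with AOA. Both measures were lower in all AOA libraries than in any vehicle library. Cct6a stood at 19.5%, 25.0% and 18.6% of Cct2 with vehicle and at 57.5%, 44.9% and 41.7% with AOA. These levels depend on the deposited gene length, which is the same for every library, and on the counting of uniquely mapped reads, for which the share of windows that Cct6a has in common with other genes was not computed.

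**Figure D3:**
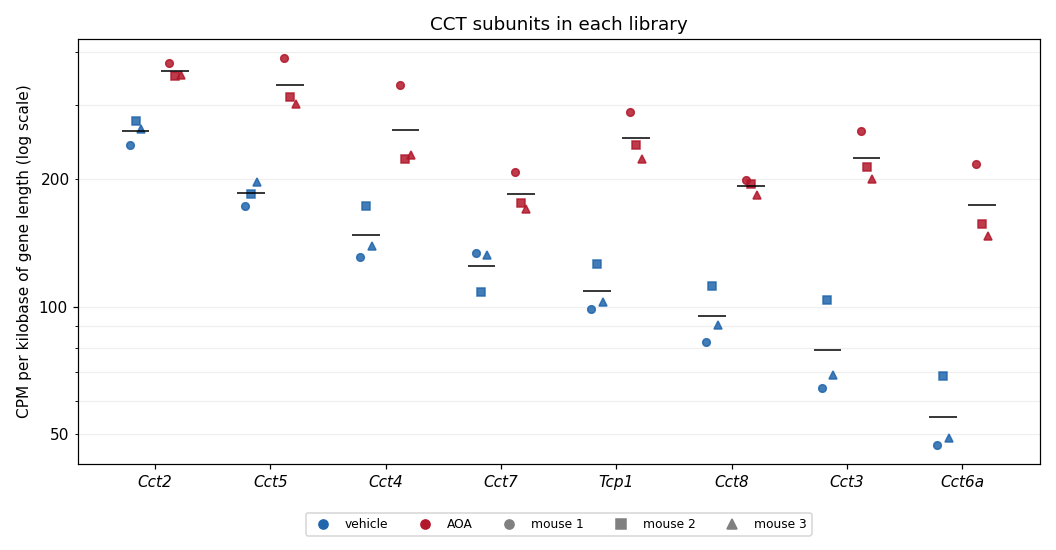
Level in CPM per kilobase of gene length (y axis, log scale) of the 8 CCT subunit genes (x axis), ordered by their mean with vehicle. Blue is vehicle, red is AOA, the marker shape gives the mouse, and black lines are means of 3 libraries. Subunits spread from Cct2 to Cct6a 4.01 to 5.36-fold with vehicle and lie within 1.94 to 2.40-fold of each other with AOA.

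The J protein genes are described by class, and differences between classes were not tested. Of the 4 DNAJA genes, general partners of HSP70, 3 were higher and 0 lower, against 26.2% and 26.8% of all genes (0 lower also at an unadjusted p under 0.05 and with DESeq2 or limma-voom). Dnaja1 was at 87.6, 86.7 and 91.1 CPM with vehicle and 159.5, 163 and 165 CPM with AOA (log2 fold change 0.88 ± 0.12 (SE), adjusted p = 0.000323), with no overlap and little spread. Of its 75-base windows, 16.6% occur in other genes. Dnaja2 was at 204, 199 and 211 CPM with vehicle and 252, 317 and 309 CPM with AOA (log2 fold change 0.52 ± 0.14 (SE), adjusted p = 0.0126), and lost its call without AOA library 2 (adjusted p = 0.0517) or 3 (adjusted p = 0.0545). Dnaja3, a mitochondrial J protein, was at 46.4, 54.8 and 44.1 CPM with vehicle and 70.9, 72.4 and 65.8 CPM with AOA (log2 fold change 0.53 ± 0.13 (SE), adjusted p = 0.00894). Dnaja4 did not pass (0.14, adjusted p = 0.547).

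Of the 10 DNAJB genes 2 were higher and 3 lower, against 26.2% and 26.8% of all genes. Dnajb1, the HSP40 of the cytosolic heat shock response, was at 60.6, 57.7 and 63.0 CPM with vehicle and 155, 112 and 114 CPM with AOA (log2 fold change 1.07 ± 0.16 (SE), adjusted p = 0.000508). Dnajb11, an ER partner of BiP, was at 70.3, 92.0 and 67.8 CPM with vehicle and 122, 134 and 136 CPM with AOA (log2 fold change 0.77 ± 0.15 (SE), adjusted p = 0.00239). In the other direction, Dnajb2, which carries ubiquitin-binding motifs and sorts clients to the proteasome, was at 24.1, 18.4 and 22.0 CPM with vehicle and 5.61, 5.34 and 4.79 CPM with AOA (log2 fold change -2.03 ± 0.18 (SE), adjusted p = 4.65e-05). It had the largest fall of the 65 tested members, and its groups did not overlap. Dnajb4 was at 15.2, 22.6 and 16.9 CPM with vehicle and 8.87, 8.83 and 7.77 CPM with AOA (log2 fold change -1.10 ± 0.20 (SE), adjusted p = 0.00157). Dnajb13, known from the axoneme of cilia, was low throughout and also fell (-0.78, adjusted p = 0.0147), a call lost without AOA library 2 (adjusted p = 0.056). Dnajb5, Dnajb6, Dnajb9, Dnajb12 and Dnajb14 did not pass, with log2 fold changes from -0.43 to 0.79. Dnajb14 was highest of these (0.79, adjusted p = 0.0603) at 1.98 to 4.49 CPM.

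The 24 DNAJC genes, whose J domain is joined to many other domains, held 7 higher (29.2%) and 6 lower members, near the shares of all genes (26.2% and 26.8%). Dnajc9, a co-chaperone of histone H3 and H4, was at 102, 122 and 107 CPM with vehicle and 249.6, 209.5 and 221 CPM with AOA (log2 fold change 1.04 ± 0.14 (SE), adjusted p = 0.000345). Dnajc11, of the mitochondrial membranes, was at 29.5, 40.1 and 32.5 CPM with vehicle and 52.8, 68.0 and 63.9 CPM with AOA (log2 fold change 0.85 ± 0.16 (SE), adjusted p = 0.00213). Dnajc2, the ribosome-bound partner of Hspa14, was at 81.0, 87.1 and 83.6 CPM with vehicle and 117, 149.8 and 147 CPM with AOA (log2 fold change 0.72 ± 0.14 (SE), adjusted p = 0.00217). The AOA libraries lay above the vehicle libraries for all 3, as for 31.0% of all genes. Dnajc17, at 6.51, 6.09 and 6.73 CPM with vehicle and 11.4, 9.36 and 10.5 CPM with AOA, was the last named by size (log2 fold change 0.69 ± 0.19 (SE), adjusted p = 0.013), and its call was lost without AOA library 3 (adjusted p = 0.0515). Dnajc19 (0.62, adjusted p = 0.0364), of the mitochondrial import motor, Dnajc21 (0.45, adjusted p = 0.046), a factor of ribosome biogenesis, and Dnajc27 (0.55, adjusted p = 0.0412) were higher too. Leaving out 1 library at a time, the call of Dnajc19 was lost without vehicle 1 or 3 or AOA 1 or 3 (adjusted p up to 0.107), that of Dnajc21 without vehicle 1 or 3 or AOA 2 or 3 (up to 0.16), and that of Dnajc27 without vehicle 3 or AOA 1 or 3 (up to 0.159). Dnajc21 overlapped between the groups.

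Among the lower DNAJC genes, Dnajc1, an ER membrane J protein that contacts ribosomes, was at 102, 130.1 and 101 CPM with vehicle and 59.8, 73.3 and 70.4 CPM with AOA (log2 fold change -0.71 ± 0.15 (SE), adjusted p = 0.00357). Dnajc7, which binds both HSP70 and HSP90 through TPR repeats, was at 259.7, 239 and 238 CPM with vehicle and 126, 167 and 176 CPM with AOA (log2 fold change -0.65 ± 0.16 (SE), adjusted p = 0.00687). Dnajc16 was at 19.9, 22.9 and 22.5 CPM with vehicle and 13.1, 17.3 and 15.7 CPM with AOA (log2 fold change -0.51 ± 0.17 (SE), adjusted p = 0.0281), a call that was kept only when AOA library 2 was the one left out (adjusted p up to 0.106 without another). Dnajc28 (-1.47, adjusted p = 0.00745), Dnajc12 (-1.39, adjusted p = 0.00837) and Dnajc4 (-1.0015, adjusted p = 0.00408) fell further but were under 11 CPM in every library. The AOA libraries lay below the vehicle libraries for all 6, as for 31.1% of all genes.

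Dnajc15, which encodes a J protein of the mitochondrial inner membrane known as a brake on respiratory complex I in CD8+ T cells, was the most abundant DNAJ gene per length with vehicle (390.1 ± 46.6 CPM per kilobase, SD). It was at 274, 218 and 266 CPM with vehicle and 339.8, 204 and 181 CPM with AOA (log2 fold change -0.07 ± 0.23 (SE), adjusted p = 0.83). The AOA library of mouse 1 exceeded all vehicle libraries and the other AOA libraries lay below them. Without the AOA library of mouse 1 the log2 fold change was -0.39 ± 0.14 (SE), adjusted p = 0.0545. Dnajc7 (106 ± 5.31 CPM per kilobase with vehicle) and Dnajc8 (98.3 ± 11.4) came next. Dnajc8 was at 147, 118 and 145 CPM with vehicle and 195, 164 and 164 CPM with AOA (log2 fold change 0.35 ± 0.14 (SE), adjusted p = 0.0654), without overlap but short of the threshold, and passed with DESeq2 (adjusted p = 0.0402). The other 9 DNAJC genes that did not pass, among them Dnajc3, Dnajc5, Dnajc10 and Dnajc13, had log2 fold changes from -0.40 to 0.42. Of them Dnajc10 was called higher with a trend in gene length removed (adjusted p = 0.0312).

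Members were also read by compartment. The compartment lists were drawn by hand and may not hold every member of a compartment: Dnajc4, Dnajc16 and Dnajc28, all lower, are on neither. Of the 8 members listed as mitochondrial, 6 rose and 0 fell (0 also at an unadjusted p under 0.05 and with DESeq2 or limma-voom). The median log2 fold change of the 8 was 0.70, and the 6 were Hspa9, Hspd1, Hspe1, Dnaja3, Dnajc11 and Dnajc19. Dnajc15 and Dnajc30 did not pass. Summed, the 8 genes held 679, 861 and 683 CPM with vehicle and 1392, 1390.4 and 1295 CPM with AOA, without overlap. Of the 8 members listed under the ER, 3 were higher (Hspa5, Hsp90b1 and Dnajb11) and 1 lower (Dnajc1), with a median of 0.38. Their sums were 1113, 1278 and 1147 CPM with vehicle and 1755, 1845 and 1847 CPM with AOA. Most of the ER sum came from Hspa5 and Hsp90b1. Of all genes, 26.2% were higher and 26.8% lower.

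BiP and GRP94 are the textbook targets of the unfolded protein response, which acts on the ER stress element, CCAAT and CCACG with 9 bases between them. Of the 54 members in the RefSeq promoter table (250 bases before to 50 after each start, both strands), 3 held a match (5.56%), against 17 of 9438 tested genes (0.180%): Hspa5, Hsp90b1 and Dnajc3. Their upstream bases follow, ending just before the start, 5′ to 3′ on the gene's own strand, with the elements in capitals. They span chr2:34771940-34772089 for Hspa5 (plus strand), chr10:86705445-86705664 for Hsp90b1 (minus strand) and chr14:118937782-118937931 for Dnajc3 (plus strand) in GRCm38.p6.
Hspa5: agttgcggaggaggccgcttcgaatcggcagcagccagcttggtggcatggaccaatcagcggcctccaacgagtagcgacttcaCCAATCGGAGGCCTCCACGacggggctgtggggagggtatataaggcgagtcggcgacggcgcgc
Hsp90b1: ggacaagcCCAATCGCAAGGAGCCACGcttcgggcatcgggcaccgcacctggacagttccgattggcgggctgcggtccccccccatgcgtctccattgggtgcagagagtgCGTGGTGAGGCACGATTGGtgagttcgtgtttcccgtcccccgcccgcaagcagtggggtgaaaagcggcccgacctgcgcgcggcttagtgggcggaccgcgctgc
Dnajc3: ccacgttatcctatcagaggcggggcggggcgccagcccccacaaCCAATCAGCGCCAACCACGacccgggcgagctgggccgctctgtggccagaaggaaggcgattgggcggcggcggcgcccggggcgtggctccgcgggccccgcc

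Hsp90b1 held 2 such elements, one of them on the opposite strand, and Hspa5 and Dnajc3 held 1 each. Hspa5 and Hsp90b1 rose, as given above. Dnajc3, which encodes an ER J protein, was at 213, 169 and 225 CPM with vehicle and 210.5, 208 and 219 CPM with AOA (log2 fold change 0.07 ± 0.15 (SE), adjusted p = 0.713), with overlapping groups. The shorter unfolded protein response element TGACGTG was in 5.56% of member promoters and 3.46% of those of tested genes.

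A heat shock element of 3 units was in 4 of the 54 members (7.41%), against 0.540% of tested genes. Hspd1 and Hspe1 held it in the stretch they share, so that 1 site counted for both, and Dnajb6 and Hsph1 held the others. Of these 4 genes, Hspd1 and Hspe1 rose, and Dnajb6 and Hsph1 did not pass. With only 2 units, which every match of 3 also contains, the shares were 24.1% and 14.0%. Of the 7 CCT promoters found, 0 held 3 units, 0 held the ER stress element, and 3 (42.9%) held 2 units, against 14.0% of tested genes. The members without an entry were Cct4, Dnajc2, Dnajc5, Dnajc11, Dnajc12, Dnajc18, Dnajc30, Hsp90aa1, Hsp90ab1, Hspa8, Hspa9 and Hspa13. A match is a match of letters and was not tested against the expression values.

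The partners of HSP90 rose more often than they fell. Of 18 genes listed as HSP90 co-chaperones, 10 rose and 2 fell, against 26.2% and 26.8% of all genes. The median log2 fold change of the 18 was 0.59. The 10 include Trap1 (0.83, adjusted p = 0.000497), which encodes the mitochondrial HSP90 itself and not a co-chaperone. Stip1 (HOP), which hands clients from HSP70 to HSP90, was at 82.1, 109 and 86.2 CPM with vehicle and 306, 305 and 290.3 CPM with AOA (log2 fold change 1.70 ± 0.15 (SE), adjusted p = 3.99e-05). Ptges3 (p23) was at 32.0, 41.1 and 34.2 CPM with vehicle and 111, 102 and 90.6 CPM with AOA (log2 fold change 1.50 ± 0.15 (SE), adjusted p = 7.33e-05). The immunophilin Fkbp4 was at 85.9, 84.3 and 87.8 CPM with vehicle and 226, 224 and 237 CPM with AOA (log2 fold change 1.41 ± 0.12 (SE), adjusted p = 3.55e-05). All 3 were clear of overlap, with AOA above vehicle, as were 31.0% of all genes. Tsc1, which slows the HSP90 cycle and also restrains mTORC1, was lower, at 43.6, 45.1 and 42.2 CPM with vehicle and 24.7, 31.4 and 31.6 CPM with AOA (log2 fold change -0.58 ± 0.14 (SE), adjusted p = 0.00829). So was the myosin chaperone Unc45a, at 107, 98.7 and 89.3 CPM with vehicle and 68.5, 84.3 and 71.5 CPM with AOA (log2 fold change -0.39 ± 0.14 (SE), adjusted p = 0.0358), whose call was kept only when AOA library 2 was the one left out. Fkbp5 did not pass (0.60, adjusted p = 0.0666) but was higher with the mouse as a block (adjusted p = 0.0103) and with the length trend removed (adjusted p = 0.0377).

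Of 12 HSP70 exchange factors and regulators, 7 were higher and 1 was lower, against 26.2% and 26.8% of all genes, with a median of 0.45. Bag2 was at 3.10, 4.25 and 3.37 CPM with vehicle and 14.4, 11.8 and 11.8 CPM with AOA (log2 fold change 1.82 ± 0.22 (SE), adjusted p = 0.000195). Grpel1, the exchange factor of mortalin in mitochondria, was at 49.0, 45.1 and 52.0 CPM with vehicle and 114, 76.2 and 73.5 CPM with AOA (log2 fold change 0.85 ± 0.18 (SE), adjusted p = 0.004). Bag5 was at 20.9, 26.3 and 22.7 CPM with vehicle and 35.4, 33.7 and 34.3 CPM with AOA (log2 fold change 0.56 ± 0.14 (SE), adjusted p = 0.00867). Bag3, which links HSP70 to autophagy, went the other way, at 17.1, 16.7 and 13.4 CPM with vehicle and 4.55, 7.08 and 4.89 CPM with AOA (log2 fold change -1.51 ± 0.23 (SE), adjusted p = 0.000628). The groups did not overlap in any of these 4 genes. Over all genes the AOA libraries lay above the vehicle libraries in 31.0% and below them in 31.1%. The calls of Bag1, St13 and Hyou1, also higher, were lost without vehicle library 1 or 3 (adjusted p up to 0.0647, 0.0636 and 0.0771), and that of Hyou1 also without AOA library 2.

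Prefoldin hands actin and tubulin to the CCT ring. Of 13 genes for prefoldin and other CCT partners, 9 were higher and 0 lower, against 26.2% and 26.8% of all genes, with a median of 0.62. The edgeR test at an unadjusted p under 0.05, DESeq2 and limma-voom also put 0 lower. Pfdn4 was at 13.7, 17.6 and 14.7 CPM with vehicle and 42.3, 25.6 and 27.0 CPM with AOA (log2 fold change 1.04 ± 0.22 (SE), adjusted p = 0.00351), and Vbp1 was at 50.8, 57.3 and 61.9 CPM with vehicle and 143, 83.9 and 93.8 CPM with AOA (log2 fold change 0.92 ± 0.20 (SE), adjusted p = 0.00471). Pfdn6 was at 31.8, 30.9 and 30.5 CPM with vehicle and 57.0, 53.5 and 52.4 CPM with AOA (log2 fold change 0.81 ± 0.12 (SE), adjusted p = 0.000644). In Pfdn4 and Vbp1 the AOA library of mouse 1 lay well above the others. By deposited length these 13 genes had a median of 1077 bases, where the median over the tested genes was 2900. With the mouse as a block 8 were higher and 1 lower: Txndc9 lost its call (adjusted p = 0.0594), and Pfdn5, at 274, 214 and 274 CPM with vehicle and 252, 134 and 151 CPM with AOA, was called lower (adjusted p = 0.0244). Leaving out 1 library at a time, Pfdn1 lost its call without vehicle 1 or 3 or AOA 1 (adjusted p up to 0.0771), and Txndc9 without vehicle 1 or 3 or AOA 1 or 3 (adjusted p up to 0.147). With the length trend removed and no block, Pfdn5 was called lower as well (log2 fold change -0.64, adjusted p = 0.00699), and with both Pfdn2 lost its call (adjusted p = 0.0518).

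ER folding genes and the sensors of the unfolded protein response mostly went opposite ways. Of 16 genes for ER lectins, disulfide isomerases and their helpers, 10 were higher and 2 lower, against 26.2% and 26.8% of all genes, with a median of 0.71. Sdf2l1, an ER protein that binds Dnajb11, was at 10.2, 21.9 and 11.1 CPM with vehicle and 65.3, 46.6 and 51.8 CPM with AOA (log2 fold change 1.92 ± 0.29 (SE), adjusted p = 0.000597). Pdia6 was at 70.3, 98.9 and 73.4 CPM with vehicle and 174, 178 and 168 CPM with AOA (log2 fold change 1.10 ± 0.16 (SE), adjusted p = 0.00047). Creld2 was at 15.1, 20.3 and 14.2 CPM with vehicle and 30.8, 36.9 and 37.8 CPM with AOA (log2 fold change 1.09 ± 0.18 (SE), adjusted p = 0.000984). The lower genes were Sdf2, at 93.9, 96.1 and 96.6 CPM with vehicle and 72.5, 48.7 and 49.3 CPM with AOA (log2 fold change -0.75 ± 0.17 (SE), adjusted p = 0.00528), and Creld1 (-1.77, adjusted p = 0.00284), the latter at 1.01 to 7.44 CPM.

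Of 11 sensors and factors of the unfolded protein response, 1 was higher and 6 were lower, against 26.2% and 26.8% of all genes, with a median of -0.50. Eif2ak3 (PERK), the sensor that slows translation, was at 318, 427 and 336 CPM with vehicle and 52.2, 81.3 and 71.0 CPM with AOA (log2 fold change -2.40 ± 0.20 (SE), adjusted p = 3.21e-05). Ddit3 (CHOP), a factor induced downstream of PERK, was at 34.0, 41.3 and 35.5 CPM with vehicle and 7.63, 6.82 and 7.82 CPM with AOA (log2 fold change -2.31 ± 0.16 (SE), adjusted p = 1.51e-05). Ern1 (IRE1) was at 17.5, 20.4 and 15.0 CPM with vehicle and 4.74, 6.66 and 4.69 CPM with AOA (log2 fold change -1.72 ± 0.22 (SE), adjusted p = 0.000264). All AOA libraries lay below all vehicle libraries in each of them, as in 31.1% of all genes. Atf4, the factor translated when PERK is active, was at 306, 353 and 276 CPM with vehicle and 161, 159 and 138 CPM with AOA (log2 fold change -1.03 ± 0.15 (SE), adjusted p = 0.000481). Ppp1r15a, which reverses the PERK signal, and the sensor Atf6 were lower as well (-1.58, adjusted p = 5.77e-05 and -0.50, adjusted p = 0.0223), and the call of Atf6 was lost without vehicle library 1 or 3 or AOA library 3 (adjusted p up to 0.0913) and with the length trend removed and the mouse as a block (adjusted p = 0.0685). Xbp1, whose spliced form drives ER chaperone genes, was the one that rose, at 84.9, 81.3 and 89.2 CPM with vehicle and 121, 154 and 126 CPM with AOA (log2 fold change 0.65 ± 0.14 (SE), adjusted p = 0.00339). Gene counts do not tell its spliced from its unspliced form.

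**Figure D4:**
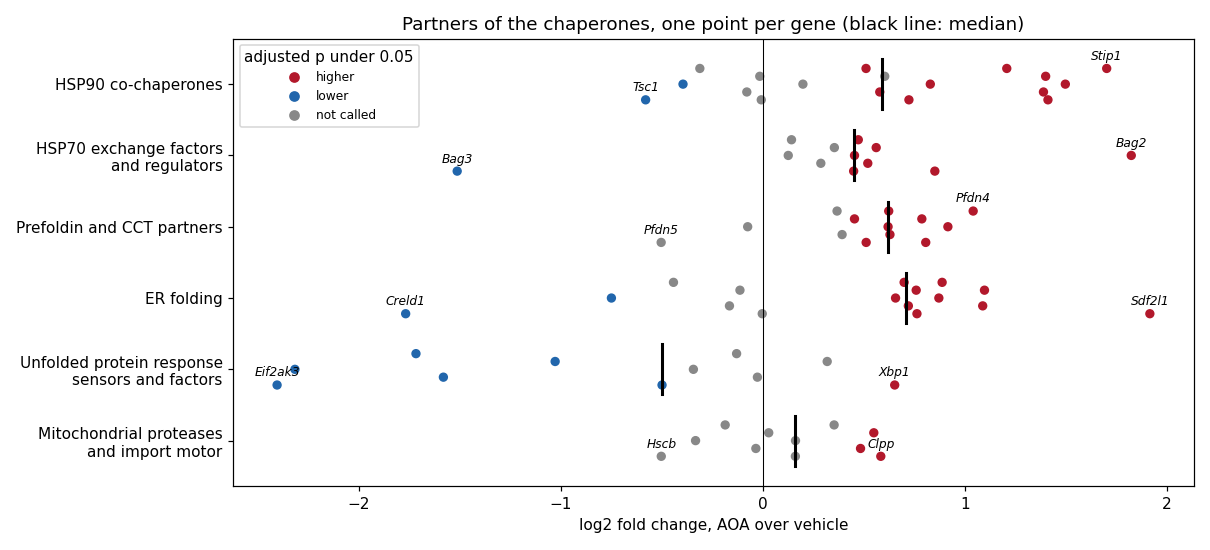
Log2 fold change of AOA over vehicle (x axis) for each tested gene of 6 lists of chaperone partners (y axis), 1 point a gene from 3 libraries a group, with vertical jitter. Colour marks an adjusted p under 0.05, and black lines are medians. Medians are 0.59 for HSP90 co-chaperones, 0.71 for ER folding and -0.50 for the sensors and factors of the unfolded protein response.

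In mitochondria, 3 of 11 protease and import genes were higher (27.3%, near the 26.2% of all genes) and 0 lower with edgeR (26.8% of all genes), with a median of 0.16. At an unadjusted p under 0.05, 2 were lower (Afg3l2 and Hscb), and DESeq2 and limma-voom put 0 lower. The 3 higher genes were the matrix proteases Clpp (12.2, 13.4 and 11.8 CPM with vehicle and 21.1, 18.3 and 16.7 CPM with AOA, log2 fold change 0.58 ± 0.17 (SE), adjusted p = 0.0152) and Lonp1, and Yme1l1 of the inner membrane. Lonp1 was at 57.1, 83.5 and 53.4 CPM with vehicle and 76.1, 109 and 98.9 CPM with AOA (log2 fold change 0.55 ± 0.20 (SE), adjusted p = 0.0447). Yme1l1 was at 151, 162 and 157 CPM with vehicle and 276, 192 and 191 CPM with AOA (log2 fold change 0.48 ± 0.17 (SE), adjusted p = 0.0357). Lonp1 overlapped between the groups. All 3 calls were lost in at least 1 fit with a library left out: Clpp without vehicle library 3 (adjusted p = 0.0526), Yme1l1 without vehicle 1 (adjusted p = 0.0942) or 3 (adjusted p = 0.0771), and Lonp1 without vehicle 1 or 3 or AOA 2 or 3 (adjusted p from 0.108 to 0.137). Lonp1 also lost it with total counts only (adjusted p = 0.0554) and with at least 10 CPM required in 3 libraries (adjusted p = 0.0613). Without AOA library 1 the log2 fold change of Yme1l1 was 0.29 (adjusted p = 0.0393). Hscb was called lower with the mouse as a block (adjusted p = 0.0291), with the length trend removed (-0.61, adjusted p = 0.0092) and with both (adjusted p = 0.0046), and Clpb higher with the length trend removed (adjusted p = 0.039).

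The heat shock factors themselves gave 0 higher and 1 lower of 3 with edgeR, against 26.2% and 26.8% of all genes. DESeq2 and limma-voom also put 0 higher, and at an unadjusted p under 0.05 there was 1, Hsf2. Hsf1, the main factor of the heat shock response, was at 45.0, 40.6 and 35.6 CPM with vehicle and 42.2, 46.1 and 44.6 CPM with AOA (log2 fold change 0.13 ± 0.14 (SE), adjusted p = 0.433), with overlapping groups. Hsf2 was at 10.4, 13.8 and 8.14 CPM with vehicle and 16.5, 17.2 and 13.3 CPM with AOA and did not pass (log2 fold change 0.54 ± 0.22 (SE), adjusted p = 0.0675), but did with the mouse as a block (adjusted p = 0.0317) and without the vehicle library of mouse 2 (adjusted p = 0.00766). Hsf4 was lower, at 12.8, 15.9 and 9.93 CPM with vehicle and 5.56, 8.77 and 4.44 CPM with AOA (log2 fold change -1.04 ± 0.29 (SE), adjusted p = 0.014), a call lost without AOA library 1 (adjusted p = 0.0646) or 3 (adjusted p = 0.0549). Of the 14 listed targets of heat shock factor 1 in the table, 10 were higher and 1 was lower, against 26.2% and 26.8% of all genes, with a median of 0.97. Hsp90aa1, Hspd1, Dnajb1 and Stip1 were among the higher ones. Bag3, usually induced with them, fell, and Hsph1, Hspa8 and Hspa4l did not pass. Hspa1a, Hspa1b and Hspb1, the other listed targets, had no row under these symbols among the 11922 genes. They are therefore in none of these counts. This list shares 8 members with the chaperone genes above and 5 genes with the HSP70 and HSP90 partner lists.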

How the data were processed

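RNA of 6 libraries was sequenced as paired reads of 75 bases from a stranded mRNA kit, and the authors deposited raw counts of uniquely mapped reads per gene, with a gene length in bases. The submitters' processing notes name bcl2fastq, STAR, featureCounts, DESeq2 and the genome build mm10, without versions, and for the counting annotation and strand setting the sources used here give nothing. All 6 count columns carry a sample's title, and 0 columns were left without a sample.

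The counts were tested with edgeR 4.0.16 in R 4.3.3 (TMM, filterByExpr with a minimum count of 10, robust glmQLFit, glmQLFTest, two-sided). P-values were adjusted by Benjamini-Hochberg over all 11759 genes tested, and SE is the absolute log2 fold change over the square root of F. CPM used TMM library sizes, and levels were compared between genes only per kilobase of the deposited length. Median log2 fold changes of all genes lay between -0.02 and 0.03 under the scalings tried. The test was checked on simulated data with known changes in a small set of genes, far fewer than were called here. That check does not cover changes as wide as these.

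The labels give each library's mouse donor, numbered 1 to 3 in both groups, so the donor pairs the libraries. The deviations of same-numbered libraries from their group means correlated at 0.0868, 0.189 and 0.194 for mice 1, 2 and 3. The main fit had no block, since the study's methods name none, and a blocked value is given where it changes a call. Alternatives were DESeq2 1.42.0, limma-voom (limma 3.58.1), other size factors, other filters on low counts, the block, a loess trend in gene length removed (span 0.5), a minimum absolute log2 fold change of 1, and each library left out.

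The members and lists were chosen with earlier results of these data known. Values are given in full for every CCT gene; for up to 4 called genes per class and direction, by absolute log2 fold change, among those with at least 10 CPM in the higher group; for the 3 most abundant members of each family per length; for members whose call the block changes; and for up to 3 called genes per direction of each partner list, plus Hsf1, Hsf2, Atf4, Ddit3 and Xbp1. Others are given more briefly. Hsph1, Dnajc3, Hspbp1 and Fkbp5 were chosen after their values were seen, and so were the genes given only for their result with the block or the length trend. Gene positions and promoters are from RefSeq GRCm38.p6, and 75-base windows shared between genes were counted in GENCODE vM21 transcripts, on the longest coding transcript.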

Additional observations from a re-analysis of the deposited data

How the results depend on the processing

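With the mouse as a replicate block, the test called 39 members, 30 higher and 9 lower, as it did without, and the block changed no member's call; among the partner lists it changed those named beside the results. A required log2 fold change of at least 1 left 16 members, 11 higher and 5 lower: 5 HSP, 2 DNAJ and 4 CCT genes higher and 5 DNAJ genes lower. DESeq2 and the fit without a low-count filter each called 1 HSP gene lower, Hspa12a, which the main filter leaves untested, and the fit with the length trend removed and the replicate block called 1, Hspb11. Leaving out 1 library at a time gave 32 to 42 members called, 24 to 32 higher and 8 to 10 lower. The HSP genes then held 10 to 11 higher and 0 lower, the CCT genes 7 to 8 higher and 0 lower, and the DNAJ genes 7 to 13 higher and 8 to 10 lower. The count of 7 came without AOA library 3, where Dnaja2, Dnajc17, Dnajc19, Dnajc21 and Dnajc27 lost their calls. Of the 39 called members, 31 kept the call without each single library. Over the 61 genes that the rule for full values names, which leaves out those chosen after their values were seen, 872 of 913 alternative values kept their side of the threshold, 28 lost the call and 13 gained it. The sign changed in 3 of these values, all of Dnajc15, which was called in none of them, without vehicle library 1, AOA library 2 or AOA library 3 (log2 fold changes 0.02, 0.05 and 0.11). Its largest move, to -0.39, came without AOA library 1. Of the genes chosen later, Hsph1 (log2 fold change -0.19 to 0.44) and Dnajc3 (-0.01 to 0.18) also changed sign when 1 library was left out. The cause of these changes was not tested.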
